A study of Mus musculus with 4 samples.

Results

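Sympathoadrenal transcription factors are the regulators that turn neural crest cells into sympathetic neurons and adrenal chromaffin cells. In the RNA-seq of FACS-sorted kidney cells, 8 genes of this group were examined, *Phox2a*, *Hand1*, *Hand2*, *Gata2*, *Gata3*, *Insm1*, *Tlx2* and *Isl1*. They were found by gene symbol among 52636 Ensembl gene identifiers, and all 8 were among the 19041 genes kept by edgeR's low-count filter. The 8 genes were chosen from the comparison of *Eya1*cKO with control cells, with its values known, so their differences between the genotypes are given as a description without a test. The tissue was the embryonic mouse kidney of about E12.75, collected 48 h after tamoxifen was first given. The 2 control libraries had the genotype *Eya1*CreER/+;tdTomato, and the 2 *Eya1*cKO libraries had *Eya1*CreER/+;*Eya1* fl/fl;R26-tdTomato, in which Cre deletes floxed *Eya1*. All 4 libraries thus carried the CreER allele and came from tamoxifen-treated animals, and the sorted cells were those in which CreER, made from the *Eya1* locus, had switched on tdTomato. Each library was made from its own 5000 tdTomato+ cells, and by the labels 4 pregnant females gave 6 kidneys of each genotype. By the study's methods, suspensions were pooled ahead of the sort, and the portions of a genotype were sorted at 1 time, so the spread between libraries is that of portions and not of separate embryos. Pairs of values are given in the order library 1, library 2.

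*Phox2a* is a paired-like homeodomain factor that binds the promoters of catecholamine enzyme genes, and *Tlx2* is a homeodomain factor known from autonomic and enteric neurons. *Hand1* and *Hand2* are related basic helix-loop-helix (bHLH) factors, of which *Hand2* is needed for the noradrenergic identity of sympathetic neurons. *Insm1* is a zinc-finger factor of endocrine and chromaffin cell differentiation, and *Isl1* is a LIM-homeodomain factor of sympathetic and sensory neurons. *Gata2* and *Gata3* act late in the same lineage, but *Gata2* is also a regulator of blood and endothelial cells, and *Gata3* of the nephric duct and ureteric bud.

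The reads counted on genes ran from 17457452 to 37999342 per library and were fewer in both *Eya1*cKO libraries than in both controls. A count of 3, taken as the limit of detection, corresponded to 0.08 to 0.171 CPM (counts relative to library size, scaled by edgeR's TMM method). Reads outside any gene made up 13.9% and 12.9% of the recorded reads in controls against 22.7% and 20.9% in *Eya1*cKO. Unaligned reads were 6.32% and 6.69% in controls, against 12.9% and 12.7%, and 26486 and 27091 genes had a read, against 21455 and 20538 in *Eya1*cKO. What part these differences had in the levels of the 8 genes was not tested. The targeted gene *Eya1* (chromosome 1) was counted 6612 and 6420 times in the controls, against 377 and 219 times in *Eya1*cKO, which left 8.08% of its control level. In the quasi-likelihood test of edgeR, adjusted *P* was under 0.05 for 9.56% of all genes tested, 5.15% being higher and 4.41% lower in *Eya1*cKO. That threshold was passed by 36 genes without control 1 and 34 without control 2, and by 7491 without *Eya1*cKO 1 and 7882 without *Eya1*cKO 2, in fits where the lone library was assumed to vary like the other genotype. The 8 transcription factor genes included 5 past that threshold, *Phox2a*, *Hand1*, *Hand2*, *Insm1* and *Tlx2*, all higher in *Eya1*cKO. Since they had been chosen from this contrast, nothing is read from that count, which was 0 without control 1 or control 2 and 6 without *Eya1*cKO 1 or *Eya1*cKO 2. These 5 genes together made up 2.34 and 1.31 CPM in controls, against 128 and 144 CPM in *Eya1*cKO. *Gata2*, *Gata3* and *Isl1* differed less between the genotypes, or unevenly between the libraries.

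**Figure D1:**
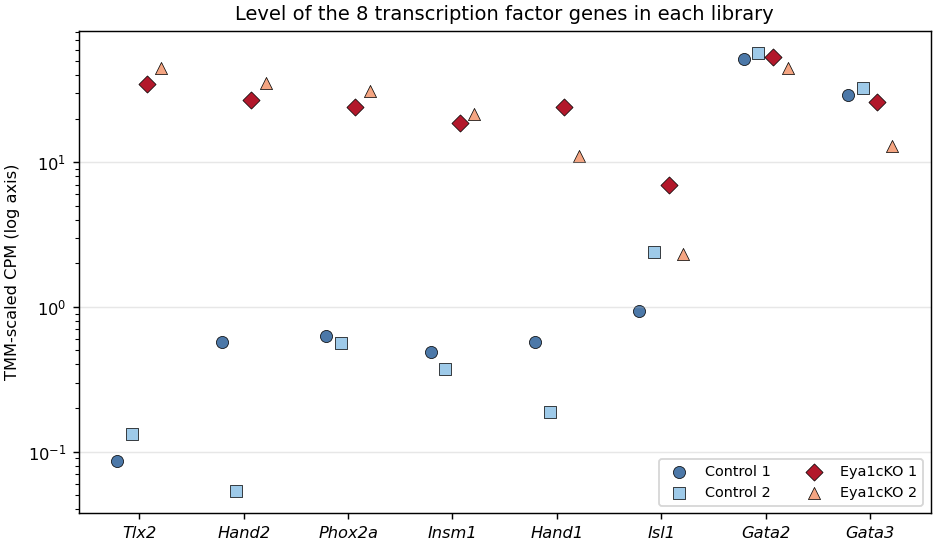
Level of each gene, in TMM-scaled CPM on a log axis, in the 4 libraries (1 point per library, circles and squares for control, diamonds and triangles for *Eya1*cKO). *Tlx2*, *Hand2*, *Phox2a*, *Insm1* and *Hand1* lay at 0.629 CPM or less in the controls and at 11.1 CPM or more in *Eya1*cKO, whereas the points of *Isl1* and *Gata2* overlapped between the genotypes.

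Among the homeodomain factors, *Tlx2* was the gene with the greatest difference of the 8 when all 4 libraries were used. Without control 1, *Hand2* had a larger log2 fold change, 9.04 against 8.15 for *Tlx2*. *Tlx2* (chromosome 6, 83068324 to 83070293 of GRCm38) was counted 3 and 5 times in the controls, against 781 and 786 times in *Eya1*cKO. Control 1 was thus at the limit of detection, and both *Eya1*cKO libraries were far above both controls. In CPM this was 0.11 ± 0.0336 for controls against 39.6 ± 7.23 for *Eya1*cKO (SD, n = 2 libraries). The log2 fold change of *Eya1*cKO over control (log2FC) was 8.41, with a standard error (SE) of 0.63. Summed over the libraries of a genotype, 8 control reads stood against 1567 *Eya1*cKO reads. This is a 353-fold difference with an exact (Clopper-Pearson) 95% interval from 179 to 819, so the size of the fold was loosely fixed by the few control reads. Intervals of this kind hold counting error alone, because PCR copies of a molecule are not independent reads.

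*Phox2a* (chromosome 7, 101818313 to 101822726) was counted 22 and 21 times in the controls, against 546 and 551 times in *Eya1*cKO. The libraries of each genotype were close to each other, and the genotypes did not overlap. Its level was 0.595 ± 0.0488 CPM in controls against 27.7 ± 5.12 CPM in *Eya1*cKO (SD, n = 2 libraries), a log2FC of 5.52 (SE 0.53). The pooled counts gave a 45.9-fold difference (exact 95% interval 33.9 to 63.9). Of the length of its exons, 4.67% is shared with *Inppl1* on the opposite strand. The strand setting of the counting is not given in the sources used here, so reads of overlapping genes cannot be told apart.

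*Phox2a* and *Hand2* had RefSeq promoter windows, which are printed here because both genes were low in the controls and had similar levels to each other in *Eya1*cKO. Each window runs 5′ to 3′ along the gene from 250 bases before to 50 bases after the RefSeq start, on GRCm38.p6. The *Phox2a* window is chr7:101818063-101818362 on the plus strand, and the *Hand2* window is chr8:57320733-57321032 on the plus strand. Capitals mark E-boxes (CANNTG), the kind of element that bHLH dimers bind.
Phox2a: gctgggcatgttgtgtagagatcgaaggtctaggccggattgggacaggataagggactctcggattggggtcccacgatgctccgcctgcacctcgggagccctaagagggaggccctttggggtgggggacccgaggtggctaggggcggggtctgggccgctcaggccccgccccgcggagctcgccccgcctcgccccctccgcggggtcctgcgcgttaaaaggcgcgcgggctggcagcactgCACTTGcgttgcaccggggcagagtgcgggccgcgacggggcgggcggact
Hand2: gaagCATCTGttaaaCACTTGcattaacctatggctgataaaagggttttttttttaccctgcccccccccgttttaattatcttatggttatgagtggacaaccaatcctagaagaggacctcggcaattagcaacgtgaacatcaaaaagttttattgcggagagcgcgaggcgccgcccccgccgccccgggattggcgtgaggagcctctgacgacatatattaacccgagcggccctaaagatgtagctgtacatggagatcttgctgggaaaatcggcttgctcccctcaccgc

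*Phox2a* had 1 E-box, at position 250 of the window, and *Hand2* had 2, at positions 5 and 16, counted from the window's first base. An E-box was present in 72.3% of 32851 RefSeq promoter windows of the same length, so its presence was common. The *Phox2a* window was rich in GC, at 71.3%, with 4 GC boxes (GGGCGG on either strand) that 35.7% of all windows hold at least once. The *Hand2* window had a lower GC content of 50.3%. It held AGATAA, the core of a GATA element, on the minus strand at position 79, a match found in 11.2% of all windows, and the homeodomain cores TAATTA at position 76 and TAATTG on the minus strand at position 127, found in 5.29% and 8% of all windows. The AGATAA and TAATTA matches overlap each other. These are matches of letters and not shown binding sites.

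Of the bHLH pair, *Hand2* was uneven between the controls, on few reads, and *Hand1* was uneven within both genotypes. *Hand2* (chromosome 8, 57320983 to 57324633) was counted 20 and 2 times in the controls, against 610 and 618 times in *Eya1*cKO. Control 2 was below the limit of detection of 3 reads whereas control 1 was above it, and *Eya1*cKO lay above them. The level was 0.313 ± 0.367 CPM in controls against 31 ± 5.81 CPM in *Eya1*cKO (SD, n = 2 libraries), and the log2FC was 6.64 (SE 0.63). Control 1 set much of this value, since without it the log2FC was 9.04 and without control 2 it was 5.73. Of the exonic length of *Hand2*, 19.6% is shared with *Hand2os1*, a gene on the opposite strand.

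*Hand1* (chromosome 11, 57828705 to 57832818) was counted 20 and 7 times in the controls, against 546 and 196 times in *Eya1*cKO. It was lower in *Eya1*cKO 2 than in *Eya1*cKO 1, yet both lay above both controls. The level was 0.379 ± 0.272 CPM in controls against 17.6 ± 9.16 CPM in *Eya1*cKO (SD, n = 2 libraries), with a log2FC of 5.61 (SE 0.81). Leaving out control 1 moved the log2FC to 6.58 and leaving out *Eya1*cKO 1 moved it to 4.89.

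*Insm1* (chromosome 2, 146221921 to 146225020, 1 exon) was counted 17 and 14 times in the controls, against 423 and 380 times in *Eya1*cKO. The libraries of each genotype lay close together and the genotypes did not overlap. Its level was 0.43 ± 0.0797 CPM in controls against 20.1 ± 2.08 CPM in *Eya1*cKO (SD, n = 2 libraries), a log2FC of 5.53 (SE 0.58). Its pattern over the 4 libraries was the nearest to that of *Phox2a* among the 8 genes, at a Euclidean distance of 0.18 between centred log2 CPM values. The next smallest distance of *Phox2a* to another of the 8 was 1.34, to *Hand1*.

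*Isl1* did not separate the genotypes. This gene (chromosome 13, 116298281 to 116309689) was counted 33 and 90 times in the controls, against 158 and 41 times in *Eya1*cKO. In CPM these were 0.944 and 2.4 in the controls and 6.97 and 2.33 in *Eya1*cKO, so *Eya1*cKO 2 was at the level of control 2 and only *Eya1*cKO 1 stood higher. The log2FC was 1.54 (SE 0.80), and it went to 0.46 without *Eya1*cKO 1 and to 2.38 without control 2. The means were 1.67 ± 1.03 CPM in controls against 4.65 ± 3.28 CPM in *Eya1*cKO (SD, n = 2 libraries), and the SD of *Eya1*cKO was larger than the difference between the means.

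*Gata2* and *Gata3* were the abundant genes of the group in the controls. *Gata2* (chromosome 6, 88193891 to 88207032) was counted 1805 and 2128 times in the controls, against 1208 and 791 times in *Eya1*cKO. Scaled to library size, the controls were at 51.6 and 56.8 CPM and *Eya1*cKO at 53.3 and 45 CPM, so that the genotypes overlapped. The log2FC was -0.13 (SE 0.17), and leaving out any 1 library kept it within -0.27 to -0.03.

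*Gata3* (chromosome 2, 9857078 to 9890034) was counted 1026 and 1216 times in the controls, against 595 and 227 times in *Eya1*cKO. In CPM it was at 29.3 and 32.4 in the controls and 26.3 and 12.9 in *Eya1*cKO, so *Eya1*cKO 1 was just below the controls and *Eya1*cKO 2 well below them. The log2FC of -0.60 (SE 0.32) rested on *Eya1*cKO 2, since it was -0.24 without that library and -1.26 without *Eya1*cKO 1. Its exons overlap those of *Gm13256* on the opposite strand over 3.9% of their length. Of all genes tested, 30.1% had both *Eya1*cKO libraries below both controls, as *Gata3* did, while 25.3% had both above, as *Phox2a*, *Hand1*, *Hand2*, *Insm1* and *Tlx2* did.

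The promoter windows of *Gata3* (chr2:9878551-9878850, minus strand) and *Isl1* (chr13:116309639-116309938, minus strand), which did not follow the other 5 genes, are printed for comparison, again along the gene with E-boxes in capitals.
Gata3: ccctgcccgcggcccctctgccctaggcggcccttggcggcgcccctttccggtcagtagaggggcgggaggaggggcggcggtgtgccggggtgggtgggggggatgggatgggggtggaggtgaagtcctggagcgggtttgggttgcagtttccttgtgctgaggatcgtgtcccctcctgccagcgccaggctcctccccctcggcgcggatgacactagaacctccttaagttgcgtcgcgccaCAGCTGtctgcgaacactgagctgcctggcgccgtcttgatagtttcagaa
Isl1: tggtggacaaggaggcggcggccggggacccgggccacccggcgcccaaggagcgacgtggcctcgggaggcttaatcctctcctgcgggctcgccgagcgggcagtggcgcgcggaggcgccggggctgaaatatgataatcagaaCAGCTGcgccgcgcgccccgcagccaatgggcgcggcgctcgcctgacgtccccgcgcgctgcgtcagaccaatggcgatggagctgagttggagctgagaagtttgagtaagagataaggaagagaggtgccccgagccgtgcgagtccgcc

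Both windows held 1 E-box with the same letters, CAGCTG, at position 250 in *Gata3* and 148 in *Isl1*. *Isl1* had AGATAA at position 261 and 2 CCAAT boxes, a motif found in 37.4% of all windows and with 2 matches each in *Phox2a* and *Hand2*. *Gata3* had no match to either motif, and had 2 GC boxes. RefSeq windows were found for 5 of the 8 genes (2 of them for *Gata2*) and not for *Hand1*, *Insm1* and *Tlx2*. The central part of the RE1 element that Rest binds was in 0.0365% of all windows and in none of these 6, and TATAAA was in none of the 6 and in 13.6% of all. An RE1 match that rare could not be expected in 6 windows, and sites outside the windows were not searched, so nothing is read from its absence.

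**Figure D2:**
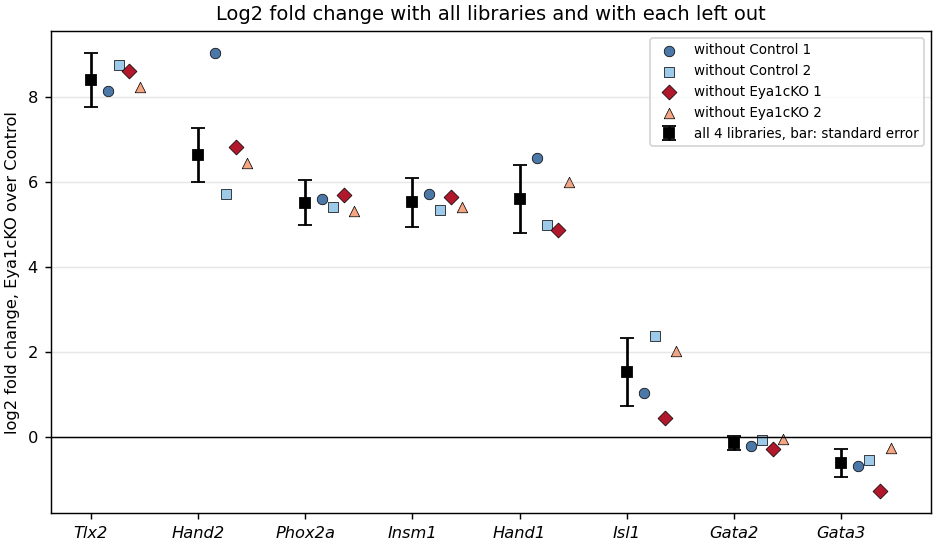
Log2 fold change of each gene, *Eya1*cKO over control, with all 4 libraries (squares, bars are the SE of edgeR's fit) and with each library left out in turn (coloured points). *Tlx2*, *Phox2a* and *Insm1* moved little, *Hand2* ran from 5.73 to 9.04, *Isl1* ran from 0.46 to 2.38, and *Gata2* and *Gata3* lay below 0.

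The order of the genes, compared per kilobase of exon, turned over between the genotypes. In both controls *Gata2* and *Gata3* came first, at 9.56 and 10.5 CPM per kilobase for *Gata2* and 7.37 and 8.15 for *Gata3*. The other 6 genes lay between 0.0227 and 0.606 CPM per kilobase there. In both *Eya1*cKO libraries *Tlx2* came first, at 21.8 and 28.3 CPM per kilobase, and made up 26.8% and 33.9% of the sum. *Hand1* came next in *Eya1*cKO 1 at 12.1 but was at 5.58 in *Eya1*cKO 2. *Phox2a* was at 11.8 and 15.4 and *Hand2* at 11.5 and 14.9, and these neighbours did not differ beyond counting error, with a per-kilobase ratio of *Phox2a* to *Hand2* of 1.03 in *Eya1*cKO 1 (exact 95% interval 0.92 to 1.16) and 1.03 in *Eya1*cKO 2 (0.917 to 1.16). *Gata2* came next after *Hand2* in both, at 9.88 and 8.33 CPM per kilobase. *Isl1* was last in both, at 1.76 and 0.589. As a percentile of the genes detected in a library, *Tlx2* went from 9.78 and 15.8 in the controls to 88.3 and 91.2 in *Eya1*cKO.

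The libraries of a genotype were then compared with each other, a comparison that the choice of the genes did not use. In *Eya1*cKO the 8 genes fell into a set of 4 that was higher in *Eya1*cKO 1 and a set of 4 that was higher in *Eya1*cKO 2, and for none of them did the exact 95% interval of the ratio span 1. *Isl1*, *Hand1*, *Gata3* and *Gata2* were higher in *Eya1*cKO 1, with ratios of *Eya1*cKO 1 over *Eya1*cKO 2 of 2.99 (2.11 to 4.33), 2.16 (1.83 to 2.56), 2.03 (1.74 to 2.38) and 1.19 (1.08 to 1.3). *Hand2*, *Phox2a*, *Tlx2* and *Insm1* were lower there, with ratios of 0.766 (0.684 to 0.858), 0.769 (0.682 to 0.867), 0.771 (0.698 to 0.853) and 0.864 (0.75 to 0.995). These intervals hold no variation between cell portions or preparations. Among tested genes with a like number of reads, the ratio was itself spread widely, and all 8 genes lay inside the range from the 5th to the 95th percentile of those genes, for *Hand1* for example 0.408 to 2.74. In the controls, 7 of the 8 lay inside that range. The exception was *Hand2*, with a ratio of control 1 over control 2 of 10.7 (2.6 to 94.6) that rested on 20 and 2 reads.

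**Figure D3:**
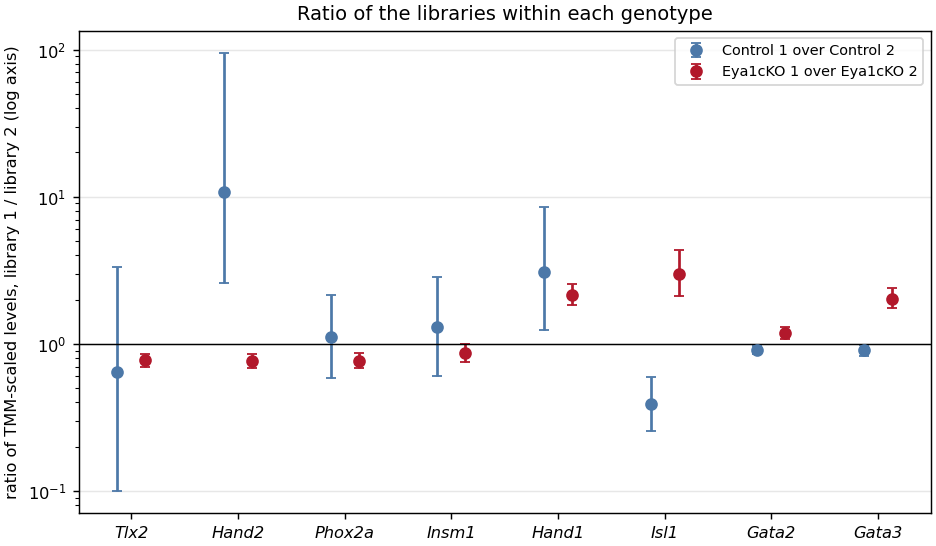
Ratio of the TMM-scaled level in library 1 to that in library 2 of the same genotype, on a log axis, for each gene (blue, control; red, *Eya1*cKO; bars are exact 95% intervals of the counts). In *Eya1*cKO, *Tlx2*, *Hand2*, *Phox2a* and *Insm1* sat together between 0.766 and 0.864, and *Hand1*, *Isl1*, *Gata2* and *Gata3* sat above 1.

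Ratios between genes inside a library were even across *Eya1*cKO for some pairs and uneven for others. *Phox2a* to *Tlx2*, per kilobase of exon, was 0.543 (exact 95% interval 0.486 to 0.607) in *Eya1*cKO 1 and 0.545 (0.488 to 0.608) in *Eya1*cKO 2. The ratio of *Phox2a* to *Th*, which encodes tyrosine hydroxylase, the rate-limiting enzyme of catecholamine synthesis, was 0.59 (0.531 to 0.655) and 0.674 (0.606 to 0.749). The ratio of *Hand1* to *Hand2* was not even, at 1.05 (0.937 to 1.18) in *Eya1*cKO 1 and 0.373 (0.316 to 0.439) in *Eya1*cKO 2. These intervals do not meet but hold counting error alone. Each of these genes, taken singly, lay inside the spread between the *Eya1*cKO libraries of genes with like reads. *Gata2* to *Gata3* was 1.3 (1.2 to 1.4) and 1.29 (1.2 to 1.38) in the controls, and 1.5 (1.36 to 1.65) and 2.57 (2.21 to 2.99) in *Eya1*cKO.

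Within the gene families, the larger part passed to another gene in both *Eya1*cKO libraries for Tlx and Isl, whereas *Insm1* and *Gata2* had the largest share of their families in all 4 libraries. In the Tlx family, *Tlx3*, a related homeodomain factor, made up 96.2% and 91.6% of the per-kilobase sum in controls, whereas *Tlx2* made up 82.5% and 96.1% in *Eya1*cKO. The level of *Tlx3* itself was not lower there, at 2.09 and 1.63 CPM in controls against 7.06 and 1.76 CPM in *Eya1*cKO. *Insm1* and *Insm2* shared the control sum almost evenly, with 54.9% and 52.2% for *Insm1*, while in *Eya1*cKO *Insm1* had 91.9% and 78%. *Insm2* was at 0.343 and 0.293 CPM in controls against 1.41 and 5.23 CPM in *Eya1*cKO. The share of *Isl1* against *Isl2* went the other way, from 82% and 94.3% in the controls to 41.2% and 37.4% in *Eya1*cKO. *Hand1* had 54.1% and 80.5% of the Hand sum in controls, on few reads, and 51.3% and 27.2% in *Eya1*cKO. The Gata family sum was similar throughout, at 24.7, 25.7, 29 and 21.2 CPM per kilobase in the 4 libraries, controls first. Inside it *Gata2* kept 34.1% to 40.9%, and *Gata3* had 29.9% and 31.7% in the controls against 22.8% and 15.3% in *Eya1*cKO.

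**Figure D4:**
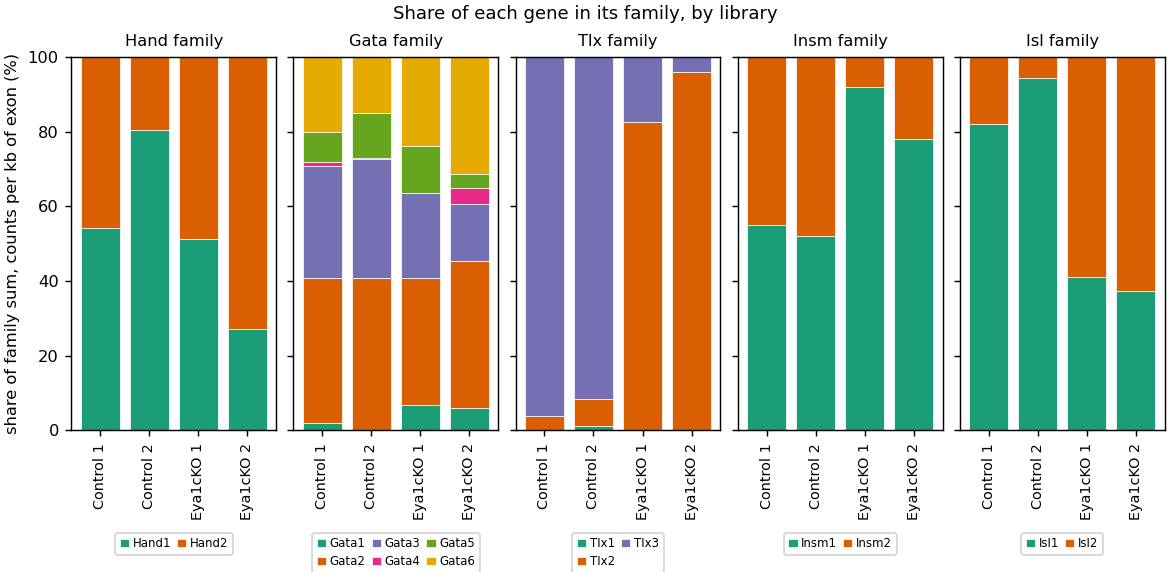
Share of each gene in the sum of its family, for 5 families, in percent of counts per kilobase of exon, for the 4 libraries (1 stacked bar per library). *Tlx3* was the larger part in the controls and *Tlx2* in *Eya1*cKO, *Isl2* had a larger share than *Isl1* in *Eya1*cKO, and *Gata2* held a steady share.

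The paralogs outside the 8 genes were tested in the fit over all genes. Of 9 listed, 8 could be tested, 2 rose and none fell (edgeR, adjusted *P* under 0.05), and their median log2FC was 2.03, beside 0.02 over all genes tested. *Isl2* was counted 4 and 3 times in the controls, against 125 and 38 times in *Eya1*cKO, a log2FC of 5.33 (SE 1.21, adjusted *P* = 0.037 in edgeR). It was higher in *Eya1*cKO 1 than in *Eya1*cKO 2, with a ratio of 2.55 (1.76 to 3.77), as *Hand1* was. *Tlx1* had at most 1 read in any library. Among the paralogs, 0 passed without control 1 or control 2, 7 without *Eya1*cKO 1 and 5 without *Eya1*cKO 2.

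Of 20 other regulators and cofactors, 18 could be tested, of which 3 rose and 4 fell, with a median log2FC of -0.03. *Lmo2*, a LIM-only protein that bridges GATA and bHLH factors, rose by 1.41 (adjusted *P* = 0.0098 in edgeR), and *Epas1*, a hypoxia-inducible factor expressed in chromaffin and endothelial cells, by 1.38 (adjusted *P* = 0.0032 in edgeR). *Sox11* changed by -1.27 (adjusted *P* = 3.7e-04 in edgeR). The E protein gene *Tcf3*, whose product dimerizes with Hand proteins, changed by -0.56 (adjusted *P* = 0.0061 in edgeR). The GATA cofactor genes *Zfpm1* and *Zfpm2* had log2FC values of 0.03 and 0.44 and did not pass the threshold. Without control 1 or control 2, 1 gene of this list passed, and without *Eya1*cKO 1 or *Eya1*cKO 2 there were 12 and 9.

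Among 23 effector genes of noradrenergic and chromaffin cells, all of which could be tested, 9 rose and 1 fell, and the median log2FC was 1.46. *Th* rose from 9 and 14 reads in controls to 1075 and 950 in *Eya1*cKO 1 and 2 (7.29, SE 0.43, adjusted *P* = 1.1e-04 in edgeR). *Slc6a2*, the noradrenaline transporter gene, was counted 0 and 0 times in the controls, against 41 and 42 times in *Eya1*cKO. Against the limit of 3 reads in each control library it was at least 24.9-fold higher in *Eya1*cKO (adjusted *P* = 0.048 in edgeR). *Pnmt*, the gene of the enzyme that makes adrenaline, did not pass, with 13 and 44 reads in controls and 47 and 1 in *Eya1*cKO 1 and 2. *Prph*, which encodes the neuronal filament peripherin, did not pass either, with 44, 23, 93 and 3 reads in the same order. The gene that fell was *Ret*, a receptor gene of both sympathetic neurons and the ureteric bud, with a log2FC of -1.89 (adjusted *P* = 0.023 in edgeR). Leaving out either control lowered the count to 3 of the 23, and leaving out *Eya1*cKO 1 or *Eya1*cKO 2 raised it to 18 and 15.

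**Figure D5:**
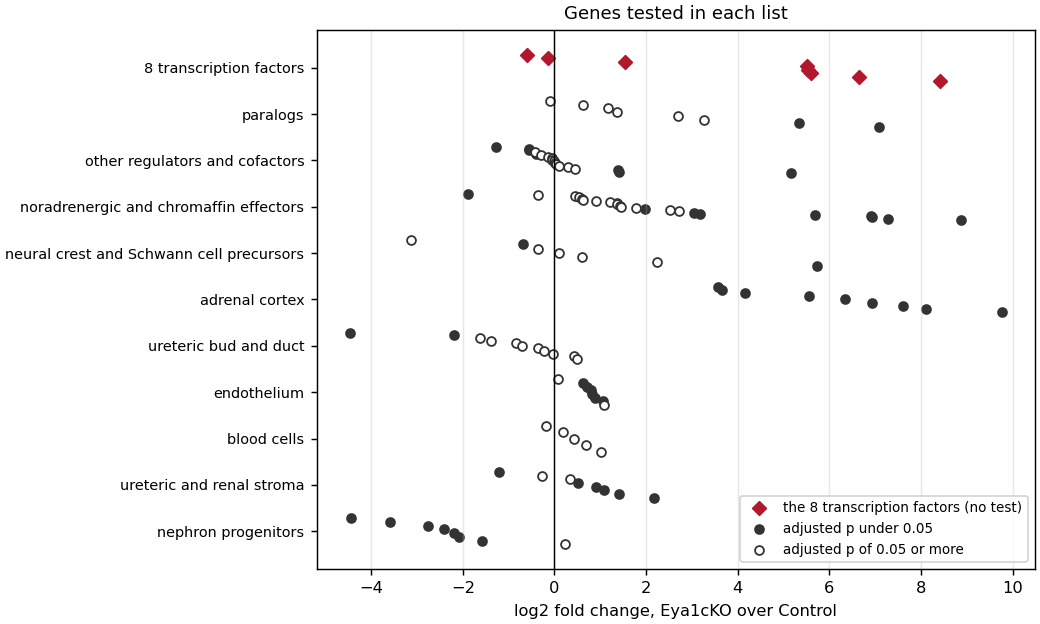
Log2 fold change, *Eya1*cKO over control, of every gene tested in each list (1 point per gene, filled where edgeR's adjusted *P* was under 0.05, red diamonds for the 8 transcription factors, which carry no test). All adrenal cortex genes tested lay at 3.58 or higher, and the nephron progenitor genes other than *Wt1* at -1.58 or lower.

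Genes of other cell types that the sort could hold moved in the same libraries, and their levels are set beside those of the 8 genes. The 10 adrenal cortex genes summed to 19.8 and 12.9 CPM in controls, against 753 and 717 CPM in *Eya1*cKO. All 9 of them that could be tested rose, with a median log2FC of 6.35, led by the steroid enzyme gene *Hsd3b1* (9.77, adjusted *P* = 6.9e-07 in edgeR). *Hsd3b1* has close copies between which reads can be split. *Cyp17a1* had 3 reads or fewer in every library. Without control 1 the number past the threshold was 5, and without control 2 it was 3. The sum of the 5 transcription factor genes that separated the genotypes was higher in the same 2 libraries as the adrenal cortex sum. Within *Eya1*cKO the cortex sum was slightly higher in library 1 (753 and 717 CPM), and that of the 5 genes in library 2 (128 and 144 CPM). The sum of the 23 effector genes was also higher in library 2, at 650 and 720 CPM. With 1 pair of libraries, nothing more is read from these orders. What part adrenal cells had in the levels of the 8 genes was not tested. In bulk RNA, more cells of a type and more RNA per cell cannot be told apart.

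Of 9 genes of neural crest cells and Schwann cell precursors, 7 could be tested, of which 1 rose and 1 fell, with a median log2FC of 0.10. *Sox10*, the lineage regulator, was counted 0 and 5 times in the controls, against 83 and 75 times in *Eya1*cKO (5.74, adjusted *P* = 0.035 in edgeR), and *Ngfr*, which is not limited to neural crest, changed by -0.69 (adjusted *P* = 0.021 in edgeR). *Foxd3* was too low to test, with at most 7 reads in any library. In edgeR 0 of the list passed without control 1 or control 2, while 3 and 4 did without *Eya1*cKO 1 and 2. The sums of the list were 185 and 183 CPM in controls against 160 and 173 CPM in *Eya1*cKO. Most of the control sums was *Ngfr*, at 118 and 117 CPM, against 67.5 and 78.4 CPM in *Eya1*cKO. By library, 5 of the 9 genes were higher in *Eya1*cKO throughout, 2 were lower and 2 overlapped. The lower sums thus followed *Ngfr* and do not show a fall of the list as a whole.

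Genes of other tissues in which *Gata2*, *Gata3* and *Isl1* are active were read in both genotypes. The 11 ureteric bud and duct genes are of the tissue in which *Gata3* is best known. They summed to 406 and 418 CPM in controls against 300 and 309 CPM in *Eya1*cKO. Of these, *Ros1* and *Calb1* fell, with log2FC values of -4.47 (adjusted *P* = 0.009 in edgeR) and -2.19 (adjusted *P* = 0.0034 in edgeR). The other 9 did not pass the threshold. Both *Eya1*cKO libraries lay below both controls for 7 of the 11 and above them for 2, beside 30.1% and 25.3% of all genes tested. The 8 endothelial genes, a tissue in which *Gata2* is active, summed to 559 and 565 CPM in controls against 950 and 1020 CPM in *Eya1*cKO, and 6 of them rose while *Gata2* itself had a log2FC of -0.13. Of the 8 blood cell genes 5 could be tested and none passed the threshold in edgeR or in DESeq2, while 1 had an unadjusted *P* under 0.05 in edgeR, with *Hba-x* at 0 or 1 read and the largest log2FC in *Itga2b* (1.01, adjusted *P* = 0.38 in edgeR). In the list of ureteric and renal stroma, where *Isl1* marks cells around the ureter, 5 of 8 genes rose and 1 fell, *Tbx18*, the regulator of ureteric mesenchyme (-1.21, adjusted *P* = 0.047 in edgeR). Of the 8 nephron progenitor genes, *Eya1* included, 7 fell, and *Wt1* did not pass the threshold (0.23). Without control 1 or control 2 no gene of the ureteric bud, endothelial and stromal lists passed in edgeR, and 4 nephron progenitor genes did. Without *Eya1*cKO 1 there were 7, 7, 7 and 8 in these lists, and without *Eya1*cKO 2 there were 9, 7, 7 and 7. How much each tissue contributed to the levels of *Gata2*, *Gata3* and *Isl1* was not tested.

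The genes outside the 8 with the most similar pattern were found by the Euclidean distance of centred log2 CPM over the 4 libraries, among 16089 genes. For *Tlx2* they were *Scg2*, a granin gene, with 4, 5, 542 and 579 reads in the 4 libraries, controls first (distance 0.63), and *Akr1cl* (0.70). For *Hand2* the nearest was its overlapping neighbour *Hand2os1*, with 15, 1, 433 and 657 reads in the same order (0.44). For *Hand1*, *Gm8151* was among the nearest (0.65). *Gpx5* was the nearest to both *Phox2a* (0.26) and *Insm1* (0.34) on few reads, with none in the controls and 70 and 64 in *Eya1*cKO 1 and 2. The nearest patterns to *Gata2* and *Gata3*, *Wdr81* (0.02) and *Ppargc1b* (0.09), lay closer, and *Isl1* was nearest to *Gm34312* (0.12). With 4 libraries that split mainly by genotype, a small distance is a description of the same 4 values.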

How the data were processed

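The deposited values are read counts per gene, made by the authors, who mapped single-end reads of strand-specific SMARTer libraries to mouse mm10 with HISAT2 and counted them on Ensembl release 90 genes with HTSeq-count. Tool versions and the strand setting are not given in the sources used here. The paper's methods give other numbers of females than the labels, which were used. The 8 genes and all lists were chosen with earlier results of these data known.

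The counts were analysed with R 4.3.3 and edgeR 4.0.16: filterByExpr with a minimum count of 10, TMM factors of 0.9868 to 1.019, and glmQLFit and glmQLFTest (legacy = FALSE) on genotype in all 4 libraries, with Benjamini-Hochberg adjustment at 0.05 over 19041 genes. The authors tested genotype with DESeq2, run here as an alternative (1.42.0). Each SE is the absolute log2FC divided by the root of its F value. The test was checked on simulated counts. Alternatives changed the normalization, count filter, test, depth, transcript length or replicate block, or left out each library. HTSeq summary lines were left out of library totals. Exonic lengths are unions of GENCODE M21 exons (GRCm38), a later release than that of the counts. Symbols were found for 52403 identifiers. Genes named were all 8, *Eya1*, up to 3 risen and 2 fallen genes of largest change per list, genes near 0 reads, and the nearest patterns (prior count of 2, mean of at least 1 CPM). Where other genes are named (*Wt1*, *Zfpm1*, *Zfpm2*, *Pnmt*, *Prph*, *Foxd3*, *Itga2b*), they were picked after their values were seen. Results of some genes are not reported here. Same-numbered libraries did not deviate together (correlation 0.0062 over 19041 genes). RE1, GATA, homeodomain and E-box matches were searched on both strands. No protein sequence was used here.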

Additional observations from a re-analysis of the deposited data

Results flagged for a closer look

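Reads lying on no gene, which no comparison here uses, were 22.7% of the reads recorded in *Eya1*cKO 1 and 20.9% in *Eya1*cKO 2, above the 13.9% and 12.9% of control 1 and 2. Unaligned reads split the same way, at 12.9% and 12.7% against 6.32% and 6.69%. Groups of 2 libraries allow no test for a library that stands apart.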

How the results depend on the processing

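The 1820 genes past the threshold became 1055 without the low-count filter, 3102 with DESeq2's Wald test, 1096 with the legacy quasi-likelihood method and 621 with a replicate block, and 34 to 7882 with each library left out in turn. With libraries left out, calls were fewest without a control and most without an *Eya1*cKO library. Those ranges were 0 to 7 for the paralogs, 1 to 12 for the other regulators, 3 to 18 for the effectors, 0 to 4 for neural crest, 3 to 9 for adrenal cortex, 0 to 9 for ureteric bud, 0 to 7 for endothelium, 0 to 2 for blood, 0 to 7 for stroma, 4 to 8 for nephron progenitors and 0 to 6 for the 8 transcription factors. With either the legacy method or no filter on counts, 1 paralog, 1 neural crest gene and 2 stromal genes passed. With counts thinned to the smallest library, these were 1, 1 and 3. With at least 10 counts in every library, 1 paralog, 1 neural crest gene, 1 ureteric bud gene and 2 of the 8 transcription factors passed, since *Hand1*, *Hand2* and *Tlx2* were then not tested. With the replicate block, 1 paralog, 5 effectors, 0 neural crest genes and 2 stromal genes passed. The shared numbers did not pair the libraries (correlation 0.0062). The cause of the other changes was not tested. None of 93 recomputed log2 fold changes of the 8 transcription factors changed sign. With all 4 libraries, *Tlx2* went from 8.41 to 9.24 with thinned counts and *Hand2* from 6.64 to at most 7.42. Leaving out control 1 took *Hand2* to 9.04, and leaving out *Eya1*cKO 1 took *Isl1* from 1.54 to 0.46. With the longest transcript as length, mean shares became 42.8% for *Gata2* and 27.1% for *Gata3* in controls, and 46.2% for *Isl1* in *Eya1*cKO. Few control reads limit the folds of *Tlx2*, *Hand2* and *Hand1*.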
